A study of Mus musculus with 6 samples.

Results

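The genes described here are 9 components of the machinery that makes peptides for MHC class I and loads them onto it. They are the inducible proteasome subunits Psmb8, Psmb9 and Psmb10, the proteasome activator subunits Psme1 and Psme2, the peptide transporter subunits Tap1 and Tap2, the loading factor Tapbp and the trimming peptidase Erap1. They were picked by gene symbol as a pathway, with earlier results of these data known, and all 9 were found among the 55493 genes of the deposited count table. All 9 also passed the filter on low counts, so none was left out of the test. RNA was sequenced from microglia, the resident macrophages of the brain, taken from male mice by sorting for low CD45 and for CD11b. All mice carried the ILT Telo Tg transgene, which brings human leukocyte immunoglobulin-like receptor genes into the mouse, on the 5XFAD amyloid background. They were 4 months old at the start and were injected intraperitoneally each week for 8 weeks at 60 mg/kg. The 3 control libraries came from mice given an Fc-mutant control antibody (27D6), and the 3 treated libraries from mice given the Fc-mutant antibody ZM3.1 against human LILRB4 (anti-LILRB4, also named anti-ILT3), an inhibitory receptor of myeloid cells. No mice without the transgene, without 5XFAD or without antibody enter the comparison, and the labels do not say whether each library came from a separate animal. The p-values therefore measure the spread between these libraries, which may be technical in part.

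Cells cut worn or faulty proteins into peptides with the proteasome, a barrel whose inner rings carry catalytic subunits. Interferon makes cells exchange the constitutive catalytic subunits (Psmb5, Psmb6 and Psmb7) for inducible ones (Psmb8, Psmb9 and Psmb10), which gives the immunoproteasome, whose products suit MHC class I better. The TAP transporter carries the peptides into the endoplasmic reticulum, where ERAP1 trims them and tapasin, the product of Tapbp, helps to place them on class I molecules. Microglia are known to raise this machinery in inflamed and amyloid-laden brain.

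The members lie in few places of the genome, and 4 of them stand side by side. In GENCODE M21 on GRCm38, Psmb9 (chromosome 17, 34181987 to 34187764, minus strand), Tap1 (34187553 to 34197225, plus strand), Psmb8 (34197721 to 34201454, plus strand) and Tap2 (34203527 to 34216321, plus strand) follow each other in the class II region of the mouse MHC. The ends of Psmb9 and Tap1 overlap by 212 bases, and Tap1 and Psmb8 are 495 bases apart. Tapbp (33915899 to 33929292, plus strand) is on the same chromosome. Psme1 (55578123 to 55581529, plus strand) and Psme2 (55587441 to 55591113, minus strand) are 5911 bases apart on chromosome 14. Psmb10 (105935735 to 105938444, minus strand) is on chromosome 8, and Erap1 (74639568 to 74693201, plus strand) on chromosome 13.

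The sequences that the neighbours share, and the short motifs found near other members, are shown here because interferon control of these genes is read from such sites. Promoter windows of 300 bases around the RefSeq start sites (GRCm38.p6, 250 bases before and 50 after) were found for 8 of the 9 members. Tap2 had no entry. The window of Tap1 shares 275 of its 300 bases with that of Psmb9, which is read in the opposite direction. It is printed on the plus strand (chr17:34187306-34187605), with its GC box in capitals:
Tap1 and Psmb9: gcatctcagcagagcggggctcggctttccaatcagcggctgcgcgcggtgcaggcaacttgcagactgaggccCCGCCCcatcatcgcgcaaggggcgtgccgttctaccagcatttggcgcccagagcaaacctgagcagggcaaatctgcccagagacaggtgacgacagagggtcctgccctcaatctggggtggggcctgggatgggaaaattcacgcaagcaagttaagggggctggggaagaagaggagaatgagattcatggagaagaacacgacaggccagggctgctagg
Motifs were searched on both strands by their letters. The interferon-stimulated response element was written as GAAA, any 2 bases and GAAA, the interferon gamma-activated sequence (GAS) TTCNNNGAA, the GC box GGGCGG, and the NF-kB site by its usual degenerate form. None of these motifs overlaps another in the windows of the members. Of 32851 promoter windows in the table, 3.44% held the response element, 8.3% the GAS, 8.46% the NF-kB motif and 35.7% the GC box. Among the members, the response element was found in Psme1 and Erap1, the GAS in Psmb8, and the NF-kB letters in none. The GC box was found in Erap1, Psmb9, Psme1, Psme2, Tap1 and Tapbp. The response elements and the GAS stand in capitals in these stretches, each with 12 bases on either side, and the GC box that ends the Erap1 stretch is left in lower case:
Psme1 response element, plus strand, chr14:55578491-55578524: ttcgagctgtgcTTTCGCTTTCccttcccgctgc
Erap1 response element, plus strand, chr13:74639837-74639870: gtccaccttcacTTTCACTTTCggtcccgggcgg
Psmb8 GAS, plus strand, chr17:34198086-34198118: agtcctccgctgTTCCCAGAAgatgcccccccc
The 2 response elements read in that form on the minus strand. A match is a description of the letters and says nothing of binding in these cells. The lack of a match does not show that a site is absent. Other spellings and sites outside the windows were not searched.

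None of the 9 genes differed between anti-LILRB4 and control libraries beyond the spread between libraries. The 95% intervals, each for a single gene, lay between 0.679-fold (Tap1) and 1.40-fold (Tapbp) of control. All 9 had a log2 fold change of less than 0.2 in size, as did 44.5% of all genes tested and 72.7% of the 2892 genes within their range of abundance. The test was edgeR's quasi-likelihood test across 18210 genes with Benjamini-Hochberg adjustment, and 0 of the 9 members were called, beside 0% of all genes called in either direction. At an unadjusted p under 0.05 there were 0 members, beside 8.03% of all genes (1463). DESeq2 on the same counts called 0.928% of all genes and 0 members, and limma-voom called 0 genes and 0 members. In 0 members did all treated libraries lie on one side of all controls. This was so for 14.7% of all genes, 6.94% with the treated libraries higher and 7.79% with them lower. With 9 genes these shares do not set the members apart from the rest. The log2 fold changes (treated minus control) ran from -0.16 (Tap1) to 0.16 (Tapbp), with 5 below and 4 above 0 and a median of -0.04, beside a median of -0.01 over all genes tested. Standard errors were 0.11 to 0.18. The 95% intervals of all 9 members included 0 and lay between -0.56 and 0.49. In the authors' deposited table the adjusted p-values of the members were between 0.753 (Psme1) and 0.98 (Psmb10 and Psmb9).

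**Figure D1:**
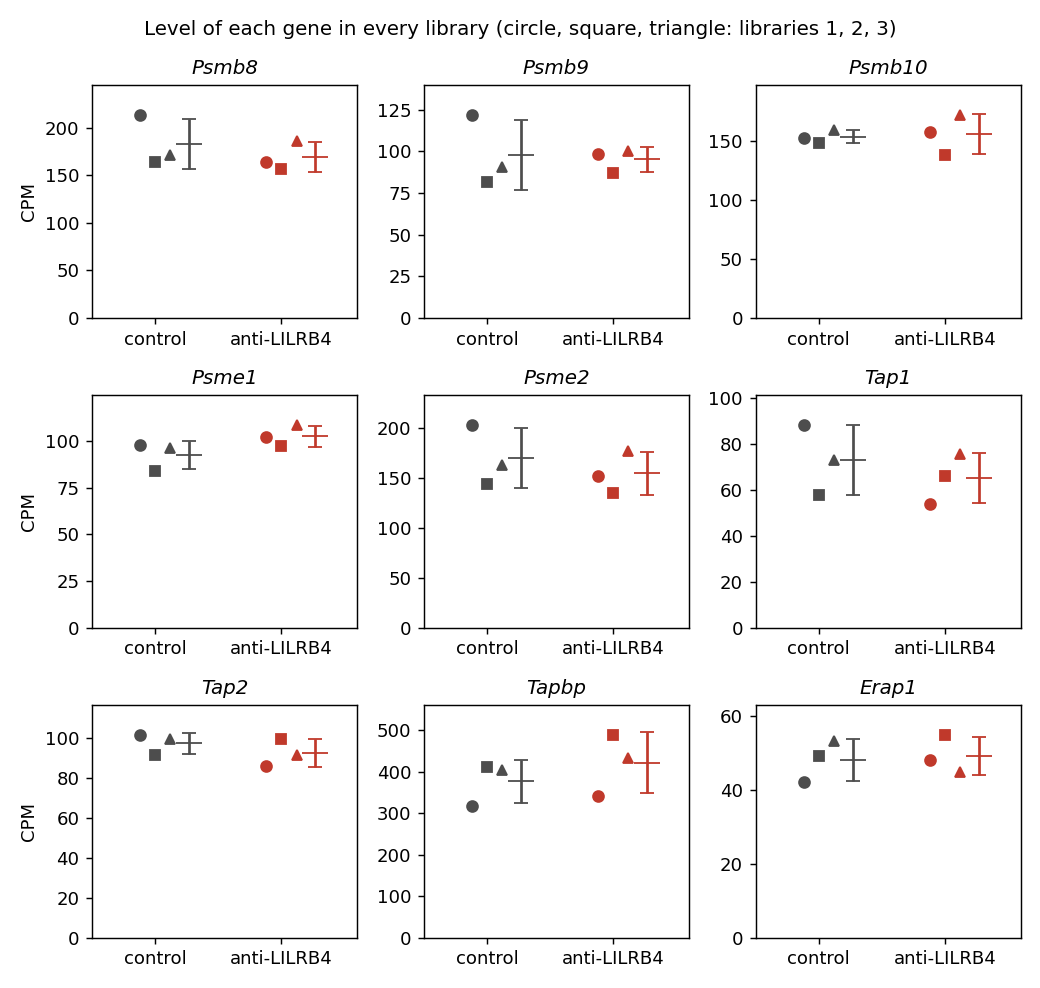
Levels in CPM (counts scaled to TMM library sizes, linear axis from 0) of the 9 genes in each library, grey for control and red for anti-LILRB4, with the mean and SD (n = 3) beside the points. In every panel the ranges of the groups overlap, and control library 1 is the highest of the 6 for Psmb8, Psmb9, Psme2, Tap1 and Tap2.

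Among the inducible catalytic subunits, Psmb8 (chymotrypsin-like site, replacing Psmb5) was measured at 213, 164 and 172 CPM in control libraries 1, 2 and 3. In anti-LILRB4 libraries 1, 2 and 3 it was at 163, 157 and 187 CPM. Control library 1 stood above the others, and the remaining controls lay within the treated range. Control libraries averaged 183 ± 26.2 CPM and treated ones 169 ± 15.6 (SD, n = 3), for a log2 fold change of -0.12 (SE 0.13, edgeR adjusted p 0.856). Its 95% interval, -0.40 to 0.17, corresponds to a change of -24.3% to 12.7%.

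Psmb9, which takes the place of Psmb6, was at 122, 81.7 and 90.6 CPM under control antibody and at 98.6, 86.7 and 100.2 CPM under anti-LILRB4. The treated libraries lay inside the control range. Its log2 fold change was -0.04 (SE 0.16, edgeR adjusted p 0.969). Psmb10, which takes the place of Psmb7, was the steadiest of these subunits in controls, at 153, 149 and 160 CPM. It was at 158, 139 and 172 CPM in the treated libraries, so that the highest and the lowest values were both treated. Its log2 fold change was 0.02 (SE 0.11, edgeR adjusted p 0.978).

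The proteasome activator PA28, a cap that opens the barrel and alters the peptides it releases, is built from the products of Psme1 and Psme2. Psme1 was at 97.5, 83.7 and 96.0 CPM under control antibody and 102, 97.0 and 108 CPM under anti-LILRB4. Anti-LILRB4 library 2 lay just below control library 1, and the other treated libraries above all controls. The means were 92.4 ± 7.58 and 102 ± 5.71 CPM (SD, n = 3), a log2 fold change of 0.15 (SE 0.11). Its adjusted p of 0.782 in edgeR was the smallest of the members. Psme2 was at 203, 143 and 163 CPM under control antibody and 152, 134 and 177 CPM under anti-LILRB4, with a log2 fold change of -0.14 (SE 0.15). The partners of PA28 therefore had log2 fold changes of opposite sign, neither of them past the threshold. Psme2 has a near-identical copy, Psme2b, which took 9.57% to 11.7% of the summed counts of both, so the split of their reads is uncertain. The sum of both was 190 ± 33.6 CPM in controls and 172 ± 23.7 in treated libraries (SD, n = 3).

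TAP1 and TAP2 pair to form the peptide transporter. Tap1 had the widest spread between libraries, with 88.3, 57.9 and 73.0 CPM under control antibody and 54.1, 66.1 and 75.8 CPM under anti-LILRB4. Its extremes were control library 1 and anti-LILRB4 library 1, and the groups overlapped over most of their range. The log2 fold change was -0.16 (SE 0.18, edgeR adjusted p 0.854). Its interval, -0.56 to 0.24, was the widest of the members and corresponds to a change of -32.1% to 17.8%. Tap2 had the narrowest spread of the members, with 102, 91.4 and 99.5 CPM under control antibody and 86.4, 99.9 and 91.6 CPM under anti-LILRB4. Its log2 fold change was -0.07 (SE 0.11).

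Tapbp encodes tapasin, which bridges TAP and class I molecules. It was at 318, 410 and 403 CPM under control antibody and 342, 488 and 434 CPM under anti-LILRB4. Control library 1 was here the lowest and anti-LILRB4 library 2 the highest. The means were 377 ± 51.5 and 422 ± 73.7 CPM (SD, n = 3), a log2 fold change of 0.16 (SE 0.15, edgeR adjusted p 0.818). Without anti-LILRB4 library 1 it was 0.29, and without control library 1 or anti-LILRB4 library 2 it was 0.05. Erap1, the aminopeptidase that trims peptides in the endoplasmic reticulum, was at 42.0, 49.0 and 53.1 CPM in controls. It was at 47.9, 54.7 and 44.7 CPM in treated libraries, and its log2 fold change was 0.03 (SE 0.14).

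Because the kit leaves strand unmarked, a member and a gene on the opposite strand cannot be told apart where their exons overlap. The overlaps given here are those of GENCODE M21, which need not be the annotation behind the counts. Exons of the antisense gene Gm19412 overlap 24.9% of the exon length of Tapbp, and those of Gm20496 overlap 14.7% of Psmb8. Exons of Gm15821 overlap 14.1% of Tap2, and those of Cast 11.5% of Erap1. Psmb9 and Tap1 share 212 bases of exon, 5.79% of Psmb9 and 3.87% of Tap1.

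**Figure D2:**
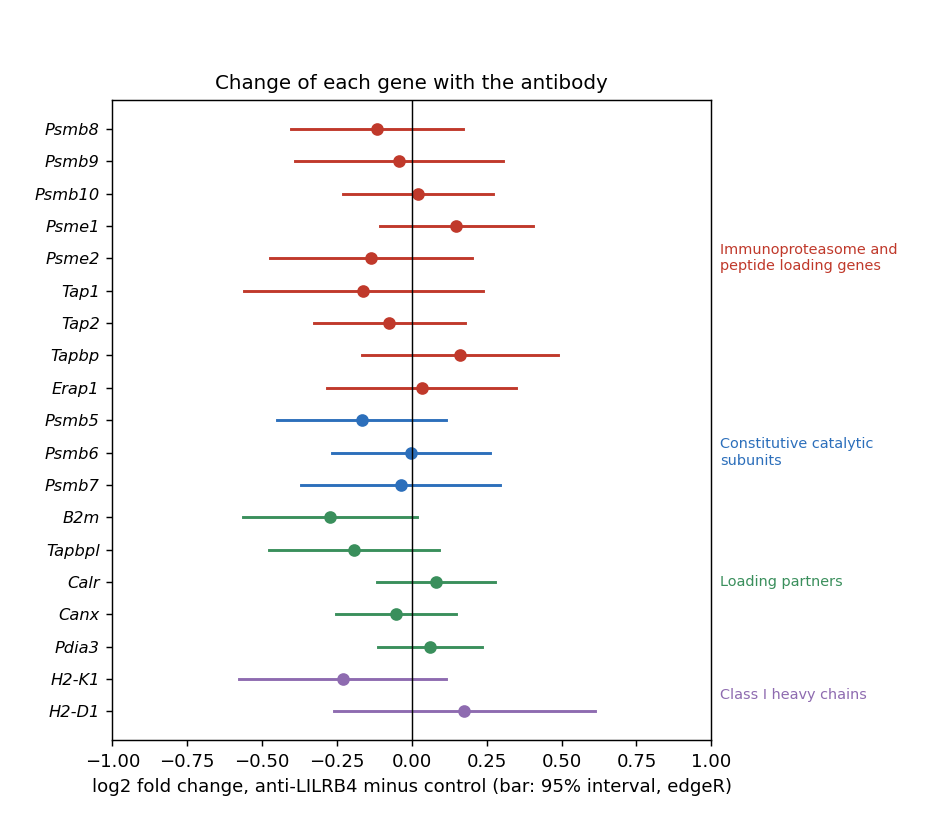
Log2 fold change (anti-LILRB4 minus control) with its 95% interval from edgeR for the 9 genes (red), the constitutive catalytic subunits, the loading partners and the class I heavy chains, from 3 libraries per group. Every interval drawn includes 0, and those of the 9 genes lie between -0.56 and 0.49.

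Removing control library 1 moved most members. Without it the log2 fold change of Psmb9 was 0.14 in place of -0.04, that of Psmb8 0.0079, that of Psme2 0.012, that of Tap1 -0.0030 and that of Erap1 -0.055. Psmb9 and Erap1 also changed sign without anti-LILRB4 library 2, and Psmb10 without anti-LILRB4 library 3. Psme1, Tap1, Tap2 and Tapbp kept their sign in all 6 fits that left out a library, though not their size. Across all alternatives tried, the members' adjusted p-values were between 0.646 and 0.999.

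Per kb of exon, the scale on which genes can be compared, Tapbp stood first and Erap1 last. The merged exon lengths were those of GENCODE M21, which need not be the annotation behind the counts. With them, Tapbp had 110 CPM per kb as a mean over the 6 libraries (range 87.6 to 135). Psme2 had 91.9 (76.2 to 115) and Psmb10 91.0 (81.4 to 101), and these ranges overlap with each other and with that of Tapbp. Psmb8 had 52.1 (46.4 to 63.0) and Psme1 44.1 (37.9 to 49.0), again with overlapping ranges. Psmb9 had 26.4 (22.3 to 33.2) and Tap2 25.1 (22.8 to 26.9), which also overlap. Tap1 had 12.6 CPM per kb (9.88 to 16.1) and Erap1 6.67 (5.77 to 7.52), and each of these stood apart from its neighbours in the order. With the length of the main annotated transcript in place of all exons, Psme2 came first, at 168 CPM per kb, and Tapbp second, at 138, while Tap2, Tap1 and Erap1 stayed lowest, at 27.6, 23.4 and 8.61. On that scale the range of Tap1 (18.3 to 29.9) overlapped that of Tap2 (25.1 to 29.6), so Tap1 no longer stood apart.

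The transcripts of inducible and constitutive subunits were compared as a ratio within each library, which does not depend on library scaling. Such ratios of RNA do not measure which subunits are built into proteasomes. The log2 ratio of Psmb8 to Psmb5 CPM was 0.99, 0.95 and 0.83 in controls and 0.94, 0.99 and 1.01 in treated libraries. The log2 ratio of Psmb9 to Psmb6 was -1.23, -1.51 and -1.51 in controls and -1.42, -1.40 and -1.50 in treated libraries. The log2 ratio of Psmb10 to Psmb7 was 1.29, 1.73 and 1.78 in controls and 1.65, 1.49 and 1.77 in treated libraries. The groups overlapped in all 3 ratios, and control library 1 was the outlying control for Psmb9 and Psmb10. The differences of the group means (treated minus control) were 0.05, -0.02 and 0.04 on the log2 scale. Two-sided exact permutation tests gave p = 0.4, 1 and 0.9, each 1 when adjusted over the 3 ratios, where 3 against 3 libraries cannot go below 0.1. The 9 differences between a single treated and a single control library ran from -0.05 to 0.17 for Psmb8, from -0.27 to 0.12 for Psmb9 and from -0.29 to 0.48 for Psmb10. Without control library 1 the differences for Psmb9 and Psmb10 became 0.07 and -0.12, so neither sign was stable. Per kb of merged exon, the ratio over all libraries was 0.474 to 0.534 for Psmb8 to Psmb5, 0.179 to 0.218 for Psmb9 to Psmb6 and 4.91 to 6.88 for Psmb10 to Psmb7. By main transcript length these were 0.985 to 1.11, 0.207 to 0.251 and 2.16 to 3.04, so those of Psmb8 and Psmb10 depend on the length used.

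**Figure D3:**
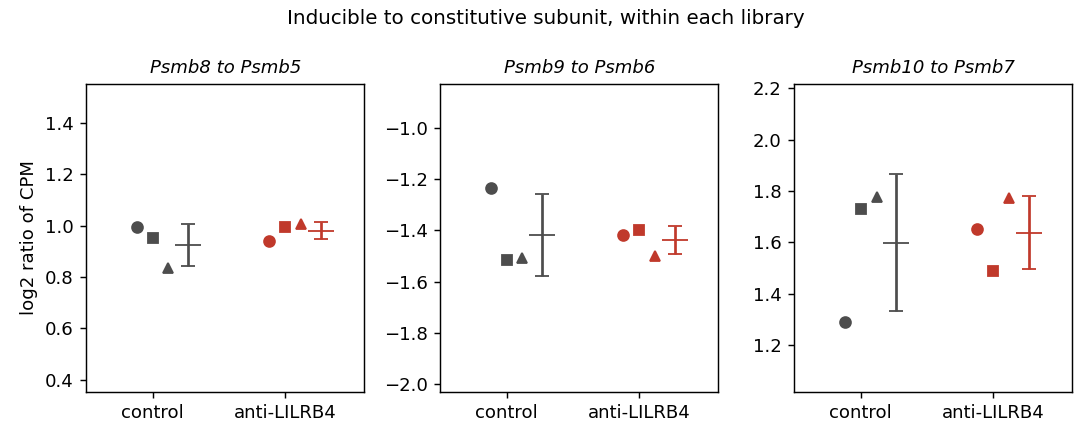
Log2 ratio of CPM of each inducible catalytic subunit to its constitutive counterpart in every library (circle, square and triangle for libraries 1, 2 and 3), with mean and SD (n = 3) and a vertical axis of equal span in each panel. The treated libraries fall within or close to the control range in each panel, and control library 1 lies apart for Psmb9 to Psmb6 (-1.23) and Psmb10 to Psmb7 (1.29).

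No gene of the constitutive proteasome was called either. Psmb5, Psmb6 and Psmb7 had log2 fold changes of -0.17, -0.0027 and -0.038 (edgeR adjusted p 0.782 to 0.997). The sign of Psmb6 turned with DESeq2 size factors (0.0011) and with library size as the scaling (0.011). Of the 11 structural subunits of the 20S core, 0 were called and 0 passed an unadjusted p of 0.05, with a median of -0.07. Psma4 (log2 fold change 0.14) and Psmb1 (-0.13) had the smallest p-values there. Leaving out control library 1 gave -0.0066 for Psmb1, leaving out anti-LILRB4 library 2 gave -0.044, and that of Psma4 was 0.25 without control library 1 and 0.088 without control library 2. Of the 18 genes of the 19S regulatory particle, which unfolds substrates, 0 passed either threshold and the median was 0.06. Psmd3 and Psmd8 had the smallest p-values, with log2 fold changes of 0.48 and 0.27. Among 8 other activators, inhibitors and assembly chaperones, 0 were called and 1 was lower at an unadjusted p under 0.05, beside 3.91% of all genes. This was Psmg1, a chaperone that helps to assemble the core ring, at 20.1, 15.2 and 15.5 CPM under control antibody and 12.0, 10.9 and 13.3 CPM under anti-LILRB4. All treated libraries lay below all controls, with a log2 fold change of -0.50 (SE 0.19, edgeR adjusted p 0.566). Psmg4, another assembly chaperone, also had all treated libraries below all controls, with a log2 fold change of -0.40 (edgeR adjusted p 0.632). Such separation was seen in 7.79% of all genes with the treated libraries lower and in 6.94% with them higher. Of the other chaperones of this kind, Psmg3 had all treated libraries above all controls, with a log2 fold change of 0.15, and Psmg2 and Pomp had log2 fold changes of 0.12 and 0.015 with overlapping groups.

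Of the 5 partners in peptide loading, 0 were called. B2m, the light chain of class I, was at 3012, 2101 and 2274 CPM under control antibody and 1862, 2217 and 2037 CPM under anti-LILRB4. Its groups overlapped through anti-LILRB4 library 2, and the log2 fold change was -0.27 (SE 0.13, edgeR adjusted p 0.640). Without control library 1 it was -0.10. Tapbpl, a relative of tapasin that edits peptides, was at 41.1, 43.2 and 46.3 CPM under control antibody and 40.4, 37.5 and 36.4 CPM under anti-LILRB4. All treated libraries lay below all controls, with a log2 fold change of -0.19 (edgeR adjusted p 0.750), while Tapbp had one of 0.16. The chaperones Calr, Canx and Pdia3 had log2 fold changes of 0.08, -0.05 and 0.06. The heavy chains H2-K1 and H2-D1 had log2 fold changes of -0.23 and 0.18, with overlapping groups. Without control library 1 that of H2-K1 was -0.031, and without anti-LILRB4 library 2 that of H2-D1 was -0.022. Of the 7 other peptidases that act on antigen peptides, 0 were called, with a median of 0.06. Lnpep, an endosomal relative of ERAP1, had a log2 fold change of -0.16 and Npepps, a cytosolic aminopeptidase, one of 0.32, with edgeR adjusted p of 0.738 and 0.681.

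Regulators of these genes were not called either. Nlrc5, the activator of class I genes, was at low levels, 3.84, 4.41 and 4.23 CPM under control antibody and 4.54, 6.27 and 3.55 CPM under anti-LILRB4. Irf1, a transcription factor that interferon gamma induces and that drives Psmb9 and Tap1, was at 91.1, 73.6 and 77.6 CPM under control antibody and 70.9, 75.3 and 65.5 CPM under anti-LILRB4. Its log2 fold change was -0.19 (edgeR adjusted p 0.747), with overlapping groups. Of the 17 regulators, 0 were lower and 1 was higher at an unadjusted p under 0.05, beside 4.12% of all genes. It was Rfxank, a subunit of the RFX factor at MHC promoters, which averaged 23.6 ± 2.58 CPM under control antibody and 31.7 ± 2.21 under anti-LILRB4 (SD, n = 3, log2 fold change 0.43, edgeR adjusted p 0.525). Exons of Nr2c2ap on the opposite strand overlap 33.8% of the exon length of Rfxank, so their reads cannot be told apart there. Jak1, a kinase at interferon receptors, had a log2 fold change of 0.26.

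The members are themselves interferon-inducible, so interferon-stimulated genes in the same libraries were set beside them. Of 20 genes known for induction by type I interferon, 18 had a negative log2 fold change and the median was -0.76. In edgeR 0 of the 20 were called. At an unadjusted p under 0.05, 13 were lower, beside 3.91% of all genes, and in 13 all treated libraries lay below all controls, beside 7.79% of all genes. The mean log2 CPM of the list relative to controls was 0.30, -0.34 and 0.045 under control antibody, by library number, and -0.81, -0.36 and -0.73 under anti-LILRB4. Control library 2 was thus about level with treated library 2. Over the same libraries the 9 neutrophil markers that passed the filter were at 0.72, -0.485 and -0.23 in controls and -2.475, -0.007 and -2.25 in treated libraries. The 4 monocyte markers that passed were at 0.615, -0.36 and -0.26 and at -0.88, -0.055 and -1.15. The part of these markers in the level of the interferon-stimulated list was not tested. Ifitm3, an antiviral membrane protein, averaged 96.0 ± 26.0 CPM under control antibody and 39.7 ± 9.75 under anti-LILRB4 (SD, n = 3). Usp18, which removes ISG15, was at 42.9 ± 10.8 and 19.6 ± 2.46 CPM. Their log2 fold changes of -1.27 and -1.13 had 95% intervals of -1.79 to -0.76 and -1.58 to -0.68, which lie below those of all 9 members. Both were picked for the smallest p-values of the list, so they do not stand for all of it. Other genes of the list had intervals that overlapped those of the members. DESeq2 called Ifit3, Oas1a, Rtp4 and Zbp1 of this list, each lower, as well as Ifitm3 and Usp18, beside 0.928% of all genes. The rest of the list it did not call. Ifitm3 and Usp18 were also called by edgeR when low counts were kept. The other settings called neither. Their adjusted p was 0.386 for both in the main edgeR fit and 0.347 for both in limma-voom. With the replicate block it was 0.311 (Ifitm3) and 0.292 (Usp18) in edgeR. Of 12 GTPases that respond to interferon gamma, 0 passed either threshold and 6 were below 0, with a median of -0.02. Iigp1 and Tgtp2 had the smallest p-values, with log2 fold changes of -0.99 and -1.19 at 2.35 and 4.82 CPM in controls. Without control library 1 that of Tgtp2 was -0.41.

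**Figure D4:**
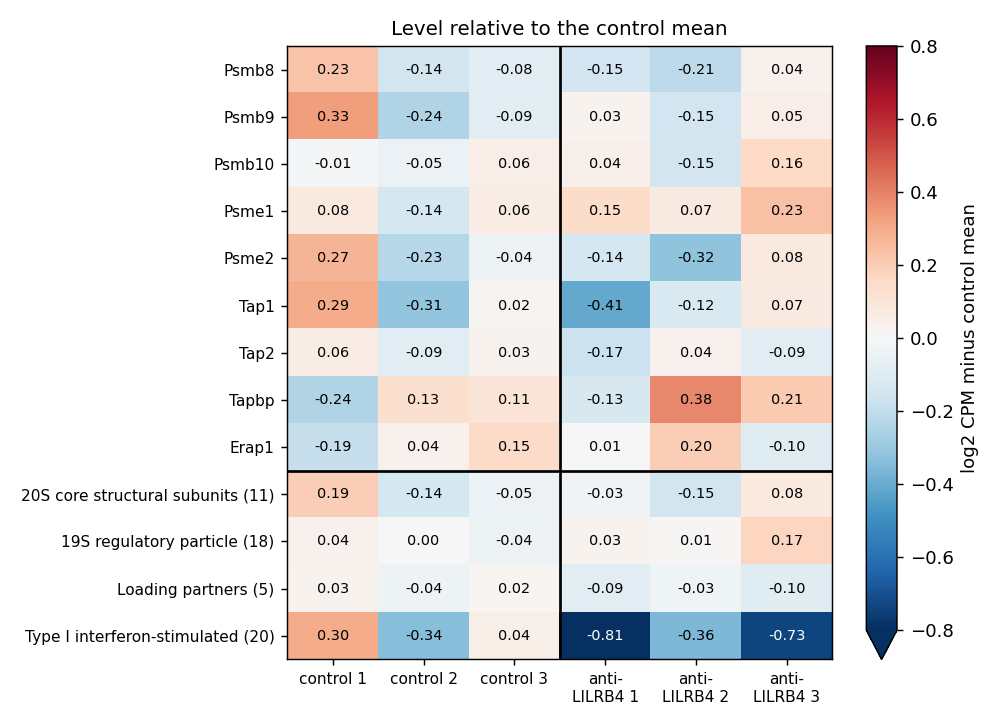
Log2 CPM minus the control mean for each of the 9 genes in the 6 libraries, and below the line the mean over the genes of 4 lists (number of genes in brackets), on a colour scale from -0.8 to 0.8. Control library 1 is the highest for 5 of the 9 genes, while the type I interferon-stimulated list is at -0.81, -0.36 and -0.73 in the treated libraries and at 0.30, -0.34 and 0.045 in the controls.

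Within the set, the members fell into an order that the treatment groups do not describe. Over the 6 libraries, 5 of the 36 pairs of members had a Pearson r of log2 CPM above 0.8. These joined Psmb8, Psmb9, Psme2 and Tap1, with Psmb8 and Psme2 at r = 0.97, although Psme2 is on another chromosome than the rest. Another 3 pairs were below -0.8, all of them between Erap1 and Psmb8, Psmb9 or Psme2. Tap1 and Psmb9, which share the promoter window printed above, had an r of 0.67, and the neighbours Tap1 and Psmb8 one of 0.84. Psme1 and Psme2, whose products form 1 complex, had an r of 0.41. These values describe 6 libraries that share their scaling.

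The level of the constitutive core and that of the interferon-stimulated genes were set beside each member over the same 6 libraries. With the mean level of 14 core genes (the 11 structural and 3 constitutive catalytic subunits), r was 0.97 for Psme2, 0.97 for Psmb9 and 0.955 for Psmb8, and 0.75 for Tap1. With the mean of the 20 type I interferon-stimulated genes it was 0.45, 0.34, 0.52 and 0.66. Tap2 was the reverse, with 0.22 for the core and 0.85 for the interferon-stimulated genes. Of the 14 core genes, 10 were highest in control library 1, as were 5 of the 9 members. The share of all genes highest in that library was not counted, so these counts do not link the members to the core. Tapbp and Erap1 ran against the core, with r of -0.67 and -0.865. No test of these differences was made. The mean log2 CPM of the 9 members relative to controls was 0.09, -0.115 and 0.02 in control libraries and -0.09, -0.03 and 0.07 in treated libraries. The named genes whose log2 CPM was most like that mean were Nhp2, a protein of small nucleolar particles (r = 0.99), Sin3b, a corepressor (0.99), Rpl7l1 (0.98), Tmem248 (0.98) and Pcyt2, an enzyme of phosphatidylethanolamine synthesis (0.97). They were the first among protein-coding genes, with predicted genes and pseudogenes left out. Of all 6714 genes compared, before that choice, 65 had an r above 0.9.

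The libraries held 39805118 to 56345514 counts each, and the members between 1840 (Erap1) and 27869 (Tapbp) counts per library. Microglia markers were abundant in all, with P2ry12 between 11260 and 13650 CPM. The 8 of them summed to 36990 to 39170 CPM in controls and 39510 to 40260 in treated libraries, and 3 were higher at an unadjusted p under 0.05, beside 4.12% of all genes. The 7 markers of border-associated macrophages summed to 38.0 to 52.5 and 45.15 to 76.7 CPM. The 8 markers of T and NK cells were each below 1 CPM in every library and summed to at most 1.02 CPM. Dendritic cell markers summed to 18.4 to 24.7 CPM in controls and 19.3 to 25.8 in treated libraries. The 4 B cell markers summed to 49.0 to 142 and 91.5 to 149 CPM, led by Cd79b. The 11 neutrophil markers, led by S100a8, summed to 1333, 569 and 610 CPM under control antibody and 133, 1129 and 219 CPM under anti-LILRB4, and 5 monocyte markers to 89.8, 43.3 and 49.2 and 32.8, 67.2 and 26.35 CPM. Of the 9 neutrophil markers tested, 2 were lower at an unadjusted p under 0.05, beside 3.91% of all genes. These were Retnlg (log2 fold change -4.12) and Mmp8 (-2.65), at most 1.77 and 1.97 CPM in treated libraries. Each had all treated libraries below all controls, treated library 2 included, although its summed level was high. Of the 9, 7 had a negative log2 fold change and 2 a positive one, Cxcr2 (0.95, at most 0.718 CPM) and Ltf (0.29). That of Lcn2 was -0.0043. In treated library 2 Ltf and Lcn2 were at 45.3 and 57.0 CPM, above all controls. Control library 1 had the highest sum in both lists, and the part of these cell markers in the levels of the members was not tested. Fewer cells of a type and less RNA per cell cannot be told apart in such bulk samples. Over the 6 libraries, which share their scaling, the mean level of the 9 neutrophil markers tested had an r of 0.885 with Tap2, 0.505 with Tap1 and 0.28 with Psmb8. It was 0.14 with Psme2, 0.11 with Erap1, 0.10 with Psmb9, -0.04 with Tapbp, -0.53 with Psme1 and -0.615 with Psmb10. The mean level of the microglia markers had an r of 0.88 with Tapbp, 0.57 with Erap1 and 0.24 with Psme1. It was between -0.175 and -0.68 with the other members, with Psme2 (-0.68) and Psmb8 (-0.67) lowest.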

How the data were processed

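Microglial RNA of 3 control and 3 anti-LILRB4 libraries was analysed, with groups and replicate numbers from the sample titles. The members and gene lists were chosen with earlier results of these data known. The deposited table holds raw read counts per Ensembl gene. STAR 2.7.9a, Subread featureCounts 2.0.3, Salmon 1.5.2 and DESeq2 1.38.3 are named in the submitters' processing notes without their roles. The build, the annotation and the handling of multimapping reads were not stated in any source used. A table deposited by the authors gives, per the file headers, a log2 fold change, a score (the Wald statistic), a p-value and a mean normalized signal per gene. Its start positions equalled those of GENCODE M21 for 529 of 24810 genes. The printed coordinates are therefore those of GENCODE M21 or RefSeq on GRCm38 and were not used for the counts. The levels per kb and the exon overlaps rest on GENCODE M21, so they may differ under the annotation behind the counts.

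Repeated rows (287, identical counts) were dropped. Genes were tested in R 4.3.3 with edgeR 4.0.16, after filterByExpr at a minimum count of 10, TMM and the quasi-likelihood F test without covariate, called at an adjusted p of 0.05. Log2 CPM used a prior count of 2. The 95% intervals use the standard error and edgeR's total degrees of freedom. Ratios were tested by exact permutation (Python 3.11.15, scipy 1.17.1). On counts simulated for this comparison with 17494 genes, edgeR recovered 31.6% of genes changed by 1 and 71.1% of those changed by 2 on the log2 scale, and its 95% intervals held the true value in 95.5%. On these simulated counts edgeR made 8 false calls and DESeq2 made 52. Counting error is small at these depths beside the spread between libraries.

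The genes named were, by rule, the members, the constitutive catalytic subunits, H2-K1, H2-D1, B2m, Nlrc5, Irf1, the pair with the smallest p in each other pathway list, the 5 genes most like the members' mean (log2 CPM of at least 4), and the most abundant marker of a cell type. One further gene of that rule is not reported here. Calr, Canx, Pdia3, Psmg2, Psmg3, Pomp, Ifit3, Oas1a, Rtp4, Zbp1, Retnlg, Mmp8, Cxcr2, Ltf and Lcn2 were added outside that rule, after their values were seen. Nrdc was matched by its RefSeq synonym Nrd1. Alternatives were other scalings, filters, DESeq2 1.42.0, limma-voom (limma 3.58.1), a replicate block and leaving out each library. The main transcript length and the sum of Psme2 with Psme2b were chosen after seeing the data.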

Additional observations from a re-analysis of the deposited data

How the results depend on the processing

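Counts of called members (0) and of members at an unadjusted p under 0.05 (0) were the same in all alternatives run. Over all genes, edgeR called 0 higher and 0 lower, DESeq2 found 84 higher and 85 lower, and edgeR without the count filter 183 higher and 117 lower. The other alternatives, each left-out library included, called 0. The median log2 fold change of the members ranged from -0.11 to 0.01 when single libraries were left out. The median over all genes was -0.0375 with upper quartile scaling and -0.0068 with TMM. Signs turned for Psmb10 with upper quartile scaling (-0.0074), and for Psmb6 with DESeq2 size factors (0.0011), library size only (0.0106), no count filter (0.0027) and DESeq2 (0.0010). Sin3b turned with upper quartile scaling (-0.0237). Pcyt2 turned with it (-0.0322), with a CPM of at least 1 in 3 libraries (-0.0064), in limma-voom (-0.0145) and with the replicate block (-0.0022).

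With single libraries left out, log2 fold changes ranged from -0.193 to 0.0079 for Psmb8, -0.150 to 0.143 for Psmb9, -0.0534 to 0.109 for Psmb10, -0.245 to 0.0116 for Psme2, -0.0550 to 0.111 for Erap1, -0.0745 to 0.0872 for Psmb6, -0.119 to 0.129 for Psmb7, -0.0222 to 0.356 for H2-D1 and -0.0330 to 0.378 for Nlrc5. They ranged from -0.129 to 0.0939 for Nhp2, -0.0412 to 0.0549 for Sin3b, -0.0844 to 0.0543 for Rpl7l1, -0.165 to 0.0470 for Tmem248 and -0.139 to 0.105 for Pcyt2. Signs held but sizes moved by over 1.5 times for the members Tap1 (-0.298 to -0.0030), Tap2 (-0.124 to -0.0252), Psme1 (0.0881 to 0.195) and Tapbp (0.0499 to 0.291). The same was so for Psmb5 (-0.242 to -0.0838), Irf1 (-0.251 to -0.0987), Jak1 (0.122 to 0.381), Npepps (0.163 to 0.441) and Psmd3 (0.323 to 0.738). It was also so for B2m (-0.369 to -0.102), H2-K1 (-0.359 to -0.0310), Psma4 (0.0879 to 0.246), Psmb1 (-0.204 to -0.0066) and Tgtp2 (-1.63 to -0.408). The ratio differences ranged from -0.0686 to 0.0722 for Psmb9 to Psmb6 and from -0.117 to 0.127 for Psmb10 to Psmb7. The causes were not tested.

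The labels do not say whether the replicate numbers shared by the groups pair the libraries. Deviations from the group means correlated at 0.014, 0.029 and -0.014 for numbers 1, 2 and 3. With 3 libraries per group, values near 0 cannot exclude a pairing. The fit with the replicate block called 0 genes, as did the fit without it, and gave a median of -0.024 for the members. The ratio differences under that pairing were 0.05, -0.02 and 0.04. With 1 library of each number per group, these equal the unpaired differences by construction and do not test the pairing.

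With 3 libraries per group, changes of the members smaller than their 95% intervals could not be detected.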
